A study of Mus musculus with 6 samples.

Results

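The messenger RNA levels of 6 genes of the DNA methylation machinery were followed in 6 mouse RNA sequencing libraries. The genes were the DNA methyltransferases Dnmt1, Dnmt3a and Dnmt3b, their cofactor Dnmt3l, and the Uhrf1 and Uhrf2 genes. They were taken by symbol from the 23889 gene symbols that every table listed, and all 6 were found in all 3 tables and measured in every library. The rule for membership uses gene names and no measured value.

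DNA methylation in mammals sits mostly on cytosines that are followed by guanine (CpG). DNMT3A and DNMT3B place it on unmethylated DNA, with DNMT3L as a partner that has no catalytic activity of its own and is best known for its need in germ cells, where it helps to set up parental imprints. DNMT1 copies the pattern onto the new strand after replication, guided by UHRF1, which recognises CpG sites methylated on the old strand only. Uhrf2 encodes a close relative of UHRF1. Embryonic stem cells (ESCs) grown in 2i, a pair of inhibitors of the kinases MEK and GSK3, are known for low DNA methylation.

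The libraries fell into 3 groups. AG-haESCs, androgenetic haploid ESCs, carry a paternal genome only: per the labels' protocols, a sperm head was injected into an oocyte whose spindle had been removed, with oocyte donors aged 8 to 10 weeks. The 3 AG-haESC libraries came from the lines A129-2, AOS-14 and AOS-16, with 1 library a line. Their strain is given as an F1 hybrid of C57BL/6 X DBA/2. They grew on feeder cells in serum replacement medium (KSR) with 2i, and haploid cells in G0/G1 were sorted after Hoechst staining. The round sperm group is a single library with the same strain label, and its label repeats the AG-haESC text on culture and sorting. The 2 ESC XX libraries are ESCs with an Oct-GFP (C57) background, grown in serum, LIF and 2i; the labels name a feeder-free treatment before collection and no cell sorting. The 2i inhibitors were thus in the medium of both ESC groups, and no group carries a deletion of any of these genes per the labels.

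Values are FPKM, which corrects fragment numbers for transcript length and library depth, or TPM, the same values rescaled to the same total in each library. Levels of different genes are compared per length only. Estimated depth was 8.98 to 19.72 M (mega) fragments per library, and 11406 to 12515 genes reached an FPKM of at least 1. The FPKM of all genes summed to 1239225 in round sperm against 507556 to 707325 in the other libraries. Transcripts under 200 nt took 12.7% of that sum in AOS-14 and 6.26% in round sperm. The ESC XX libraries differed from each other by 1.21 to 1.34 times counting noise (median chi-square over its chance value), against 6.13 to 50.3 times for pairs of AG-haESC lines, and the labels do not tell whether 2 cultures were grown. They are given side by side, and their mean served as 1 value. The defining markers were read in each library: 6 spermatid genes summed to 36849 FPKM in round sperm, with no AG-haESC line above 1.80, and 7 pluripotency genes summed to 3779 to 5114 in AG-haESCs, 3705 and 3764 in ESC XX and 250.2 in round sperm. Klf4 alone gave 219 of that last sum and was higher there than in any ESC library (46.5 to 116). The round sperm library also held 240.7 FPKM over 6 spermatocyte genes, whereas Sertoli, Leydig and blood markers summed to 1.17, 3.004 and 7.26. In bulk RNA, fewer cells of a type and less RNA per cell cannot be told apart, and the part of these markers in the results below was not tested.

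The starts of the 6 genes differ in CpG content, CpG being the site that the methyltransferases act on. RefSeq (GRCm38.p6) gave 13 promoter windows for them, each from 250 bases before to 50 bases after an annotated start, and all 6 symbols matched. The 4 windows below are shown because Dnmt1, Uhrf1 and Dnmt3b have CpG-rich starts whereas Dnmt3l, the gene that differed most between the ESC groups, does not. They lie at chr9:20952574-20952873 on the minus strand (Dnmt1, the third of its annotated starts), chr17:56304063-56304362 on the plus strand (Uhrf1, the second start), chr2:153649199-153649498 on the plus strand (Dnmt3b) and chr10:78049592-78049891 on the plus strand (Dnmt3l, the second start). Sequences run 5′ to 3′ along the gene, and capitals mark each CpG.
Dnmt1 promoter: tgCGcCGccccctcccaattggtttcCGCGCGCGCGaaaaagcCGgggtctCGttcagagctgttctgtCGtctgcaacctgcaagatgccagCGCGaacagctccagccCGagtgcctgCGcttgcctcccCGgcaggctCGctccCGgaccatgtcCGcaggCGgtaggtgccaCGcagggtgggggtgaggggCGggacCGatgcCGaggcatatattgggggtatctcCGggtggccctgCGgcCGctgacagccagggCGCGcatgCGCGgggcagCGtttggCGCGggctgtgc
Uhrf1 promoter: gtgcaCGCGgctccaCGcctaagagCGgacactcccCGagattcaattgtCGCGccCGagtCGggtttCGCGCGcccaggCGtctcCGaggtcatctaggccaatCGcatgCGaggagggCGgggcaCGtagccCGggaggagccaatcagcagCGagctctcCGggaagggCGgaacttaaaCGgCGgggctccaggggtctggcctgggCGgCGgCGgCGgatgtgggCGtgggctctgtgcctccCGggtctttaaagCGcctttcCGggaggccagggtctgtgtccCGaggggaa
Dnmt3b promoter: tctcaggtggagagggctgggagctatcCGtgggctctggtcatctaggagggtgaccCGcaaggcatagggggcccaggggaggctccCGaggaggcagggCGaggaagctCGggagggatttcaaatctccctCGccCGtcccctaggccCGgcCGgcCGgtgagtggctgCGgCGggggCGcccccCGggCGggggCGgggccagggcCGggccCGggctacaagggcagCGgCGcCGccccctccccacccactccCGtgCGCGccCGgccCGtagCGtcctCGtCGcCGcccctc
Dnmt3l promoter: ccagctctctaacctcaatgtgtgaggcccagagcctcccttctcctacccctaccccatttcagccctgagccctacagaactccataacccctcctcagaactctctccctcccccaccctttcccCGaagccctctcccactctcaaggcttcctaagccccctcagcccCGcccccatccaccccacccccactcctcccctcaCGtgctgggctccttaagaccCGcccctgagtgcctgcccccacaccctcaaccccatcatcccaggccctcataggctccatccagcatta

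These windows hold 33 CpG (Dnmt1), 33 (Uhrf1), 30 (Dnmt3b) and 4 (Dnmt3l), against a median of 7 over 32851 promoter windows of the same length. Of all windows, 91.4% held fewer than 33 CpG and 88.3% fewer than 30, whereas 31.4% held fewer than 4. The other Dnmt3l starts hold 6 and 3, so all 3 lie under the median. Dnmt3a has starts with 46, 47 and 18 CpG and Uhrf2 has 28. The remaining starts are less rich, with 2 and 12 CpG for Dnmt1 and 12 for Uhrf1. Which start was used in these cells cannot be read from values per gene. Any link between CpG content and the difference between the ESC groups was not tested.

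**Figure D1:**
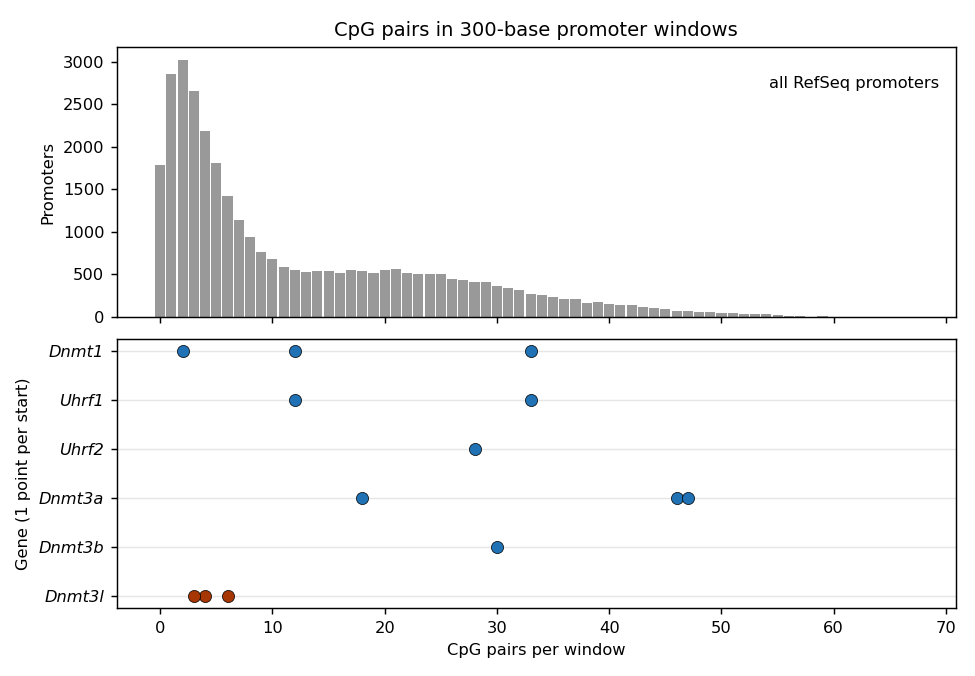
CpG dinucleotides in the 300-base promoter windows of the 6 genes (points, 1 per annotated start) over the distribution of all 32851 RefSeq windows. All 3 Dnmt3l starts lie under the median of 7, whereas each of the other genes has at least 1 start with 28 or more.

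Because Dnmt1 and Uhrf1 act at replication, their windows were also searched for E2F-type motifs, the sites of a family of factors that control S-phase genes. The letters TTTGGCGC, TTTCCCGC, TTTGCCGC and TTTCGCGC were searched on both strands, and 744 of the 32851 windows (2.26%) hold at least 1. The Dnmt1 window above holds TTTCGCGC on the strand opposite to the gene at position -219 and TTTGGCGC on the gene's own strand at position 34, counted from the start. The Uhrf1 window holds TTTCGCGC on its own strand at position -185. No other window of the 6 genes held these letters, which says nothing of factor binding. Each motif itself contains CpG, and both matched windows hold 33 CpG against a median of 7. The share of 2.26% is therefore not a background for CpG-rich windows.

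Dnmt1, the maintenance enzyme, was a mid-to-high transcript in all 5 ESC libraries and near the bottom of the expressed genes in round sperm. Its level was 35.2 FPKM in A129-2, 55.0 in AOS-14, 49.97 in AOS-16, 2.36 in round sperm, and 53.1 and 54.9 in ESC XX. The AG-haESC mean was 46.7 ± 10.3 FPKM (SD, n = 3), 19.8 times the round sperm value. Among genes with an FPKM of at least 1 in the same library, Dnmt1 stood above 80.9% to 87.0% of genes in AG-haESCs, 88.1% and 88.5% in ESC XX, and 14.3% in round sperm. The log2(FPKM + 1) difference between AG-haESCs and round sperm was 3.80 ± 0.34 (SE), with a Benjamini-Hochberg adjusted p of 0.00606 from limma, and all 3 lines were higher. Of the 15938 genes tested, 22.8% were called higher and 39.1% lower (adjusted p under 0.05 and at least 2-fold). Dnmt1 thus rose in a table whose median gene lay at -0.49 on the log2 scale. With 1 round sperm library, the spread in this test comes from the AG-haESC lines alone.

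Uhrf1, which brings DNMT1 to newly copied DNA, kept a high level in round sperm. It measured 75.4 FPKM in A129-2, 143 in AOS-14, 118 in AOS-16, 62.4 in round sperm and 131 in both ESC XX libraries. The AG-haESC mean of 112 ± 34.5 FPKM (SD, n = 3) was 1.80 times the round sperm value, and the lowest line, A129-2, lay close to it. In round sperm Uhrf1 stood above 74.4% of expressed genes, against 91.3% to 94.5% in AG-haESCs and 95.2% in both ESC XX libraries. The log2 difference was 0.79 ± 0.47 (SE), which did not pass limma's test (adjusted p = 0.238). This call depended on the scale. As TPM, Uhrf1 was 148, 203 and 217 in the lines and 50.3 in round sperm, a difference of 1.87 ± 0.30 with a limma adjusted p of 0.0204. Over 9 alternative settings its adjusted p ranged from 0.00976 to 0.419. On either scale Uhrf1 kept a smaller difference than Dnmt1, whose TPM difference was 4.78 ± 0.22.

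The ratio of Uhrf1 to Dnmt1 needs no scaling between libraries, since both genes come from the same one. It was 2.14, 2.61 and 2.37 in the 3 lines, 2.47 and 2.39 in ESC XX, and 26.4 in round sperm. The 5 ESC libraries were thus close to each other, with an AG-haESC mean of 2.37 ± 0.233 (SD, n = 3), and round sperm lay outside them all. Round sperm had about 2158 to 2290 fragments behind Uhrf1 and 27 to 145 behind Dnmt1, the range coming from the transcript length assumed.

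Uhrf2, the relative of Uhrf1, was a lower transcript than Uhrf1 in every library. It measured 12.7 FPKM in A129-2, 17.4 in AOS-14, 16.8 in AOS-16, 6.73 in round sperm, and 11.1 and 11.0 in ESC XX. All 3 lines lay above both other groups, with a mean of 15.6 ± 2.54 FPKM (SD, n = 3). Uhrf2 rose against round sperm by 1.09 ± 0.24 (SE) on the log2 scale, with a limma adjusted p of 0.0392 and 3 of 3 lines higher. That call is near its threshold: the difference was 1.01 with an adjusted p of 0.118 without AOS-14, and 1.04 with 0.126 without AOS-16. The adjusted p ranged from 0.00538 to 0.126 over the 9 alternatives.

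**Figure D2:**
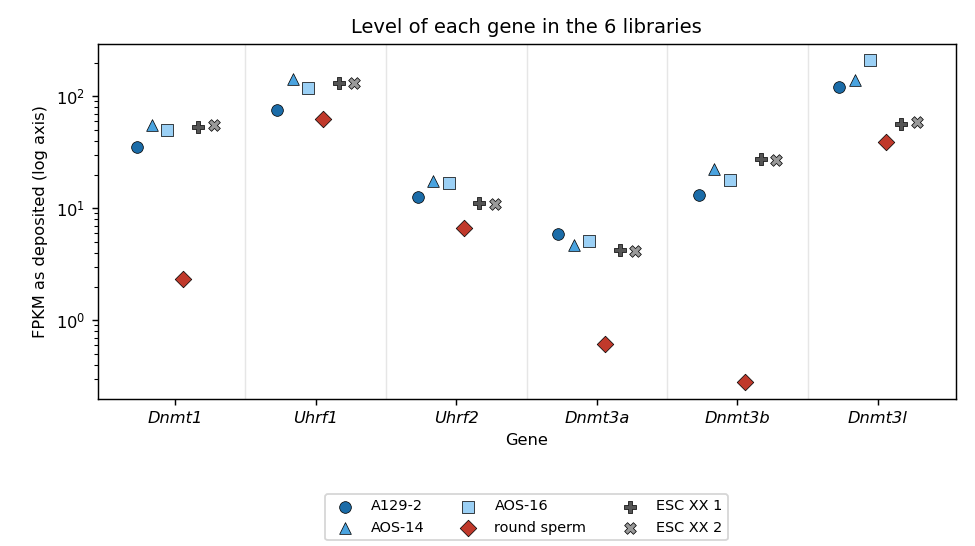
FPKM of each gene in the 6 libraries on a log axis, 1 point per library, with the 3 AG-haESC lines, round sperm and the 2 ESC XX libraries side by side. Every gene was lowest in round sperm, with the widest gap for Dnmt3b and the narrowest for Uhrf1.

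Dnmt3a, a de novo methyltransferase, was the lowest of the 6 genes in all 5 ESC libraries. Its level was 5.92 FPKM in A129-2, 4.69 in AOS-14, 5.09 in AOS-16, 0.618 in round sperm, and 4.24 and 4.15 in ESC XX. In FPKM as deposited, the lines spanned 1.26 times from lowest to highest, the narrowest of the 6 genes, and none overlapped round sperm. As TPM they lay at 11.6, 6.63 and 9.32, a wider span than that of Uhrf2 at 24.9, 24.6 and 30.7. Dnmt3a rose by 1.94 ± 0.16 (SE) on the log2(FPKM + 1) scale, with a limma adjusted p of 0.00524 and 3 of 3 lines higher. That scale understates low genes: the AG-haESC mean of 5.23 ± 0.627 FPKM (SD, n = 3) was 8.47 times the round sperm value. Only about 6 to 64 fragments stood behind Dnmt3a in round sperm.

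Dnmt3b, the other de novo enzyme, had the largest fold against round sperm. It measured 13.2 FPKM in A129-2, 22.5 in AOS-14, 17.9 in AOS-16, 0.279 in round sperm, and 27.8 and 26.8 in ESC XX. Its AG-haESC mean of 17.9 ± 4.61 FPKM (SD, n = 3) was 64.1 times the round sperm value, which rests on about 10 to 12 fragments. The log2 difference was 3.85 ± 0.37 (SE), with a limma adjusted p of 0.00697, and all 3 lines were higher. Dnmt3c, a neighbouring copy of Dnmt3b that acts in the male germ line, was not analysed here, and the sources used here do not say how reads shared by such copies were assigned. The low Dnmt3b value in round sperm is uncertain for that reason too.

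Within a library, Dnmt3b exceeded Dnmt3a in every ESC library and fell short of it in round sperm. The ratio of Dnmt3b to Dnmt3a was 2.24 in A129-2, 4.79 in AOS-14, 3.52 in AOS-16, 6.55 and 6.46 in ESC XX, and 0.451 in round sperm. The lines differed among themselves, and all 3 lay under both ESC XX libraries. Both genes were under 1 FPKM in round sperm, so the order there has little depth behind it.

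Dnmt3l, the inactive partner of the de novo enzymes, alone among the 6 genes was at least 2-fold higher in AG-haESCs than in ESC XX. Its level was 122 FPKM in A129-2, 139 in AOS-14, 211 in AOS-16, 38.8 in round sperm, and 56.99 and 59.0 in ESC XX. All 3 lines lay above both ESC XX libraries and these above round sperm, with no overlap. Against round sperm Dnmt3l rose by 1.95 ± 0.41 (SE) on the log2 scale, with a limma adjusted p of 0.0351 and 3 of 3 lines higher. This call was lost without A129-2 (2.11, adjusted p = 0.0679) and without AOS-14 (2.02, adjusted p = 0.121). The adjusted p ran from 0.00776 to 0.121 over the 9 alternatives. In round sperm Dnmt3l still stood above 66.1% of expressed genes and had about 384 to 683 fragments.

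Aire, a transcription regulator gene on the opposite strand, overlaps Dnmt3l in the GENCODE annotation. It was listed at 12.6 FPKM in A129-2, 7.67 in AOS-14, 20.1 in AOS-16, 1.70 in round sperm, and 6.93 and 6.34 in ESC XX. Aire was thus highest in AOS-16 and lowest in round sperm, as Dnmt3l was. Whether the counting used strand is not given, so reads of the pair cannot be told apart. The antisense gene of Dnmt3a, Dnmt3aos, was listed at 0 in all 6 libraries.

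Across the 6 genes, 5 were called higher in AG-haESCs than in round sperm and 0 lower, against 22.8% and 39.1% of all genes. At an unadjusted p under 0.05, limma also placed 0 of the 6 lower. The median difference of the 6 was 1.95 on the log2 scale, beside -0.49 over all 15938 genes. After rescaling to the same total, 6 of 6 were higher, 30.5% of all genes were called higher and 28.1% lower, and the median over all genes became 0.40. That rescaling moved the share of higher among all calls from 36.8% to 52.1%. As deposited, the difference of Dnmt3b exceeded that of 95.2% of genes and that of Dnmt1 a similar share. The shares for the others were, for Dnmt3l 81.8%, Dnmt3a 81.6%, Uhrf2 70.8% and Uhrf1 66.1%. Leaving out AOS-14 left 3 genes called, and leaving out A129-2 or AOS-16 left 4.

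**Figure D3:**
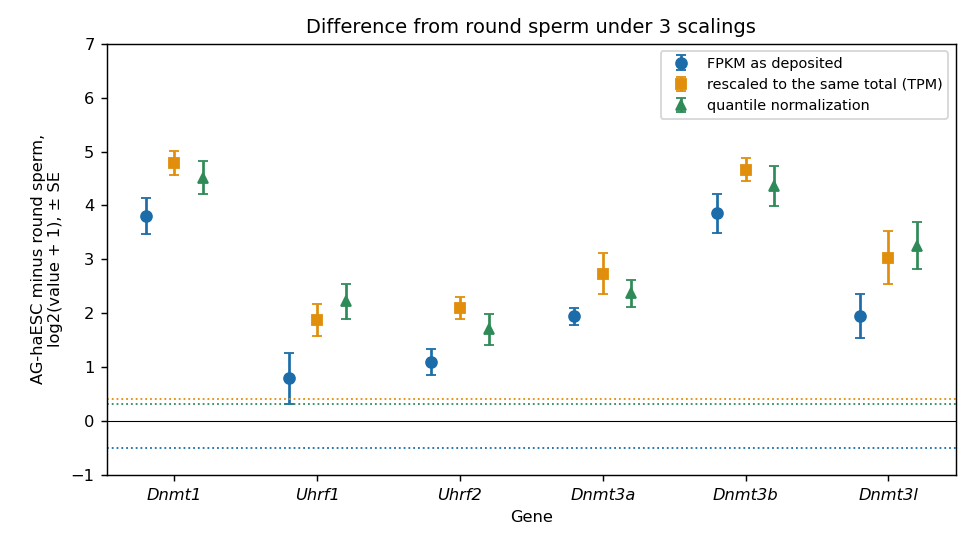
Difference between AG-haESCs and round sperm in log2(value + 1) for each gene, as deposited (FPKM), rescaled to the same total (TPM) and after quantile normalization, with bars for the standard error and dotted lines for the median of all genes. Dnmt1 and Dnmt3b lie highest on all 3 scales, and Uhrf1 is the gene whose call changes.

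The makeup of the pool of these transcripts differed between groups. Summed FPKM was 264 in A129-2, 382 in AOS-14, 419.6 in AOS-16, 111 in round sperm, and 285 and 287 in ESC XX. The catalytic enzymes Dnmt1, Dnmt3a and Dnmt3b together took 20.5%, 21.5% and 17.4% of it in the lines, 29.9% in both ESC XX libraries and 2.93% in round sperm. In round sperm, Uhrf1 and Dnmt3l together made up 91.0%. The same pair took 73.9% to 78.6% in AG-haESCs and 66.2% and 66.3% in ESC XX. The leading gene differed too: Dnmt3l took 46.2% and 50.4% in A129-2 and AOS-16, whereas Uhrf1 led in AOS-14 (37.6%), round sperm (56.1%) and ESC XX (46.2% and 45.7%).

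The ratio of Dnmt3l to Dnmt3a ordered the groups without overlap. It was 20.6, 29.6 and 41.5 in the lines, 62.8 in round sperm, and 13.4 and 14.2 in ESC XX. Dnmt3l to Dnmt3b was 9.21, 6.18 and 11.8 in the lines, 139 in round sperm, and 2.05 and 2.2004 in ESC XX. Both ratios put Dnmt3l over the de novo enzymes most in round sperm and least in ESC XX. The round sperm ratios divide by 0.618 FPKM of Dnmt3a and 0.279 of Dnmt3b, on about 6 to 64 and 10 to 12 fragments. Their sizes are therefore uncertain, as is the place of round sperm above the lines for Dnmt3l to Dnmt3a.

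**Figure D4:**
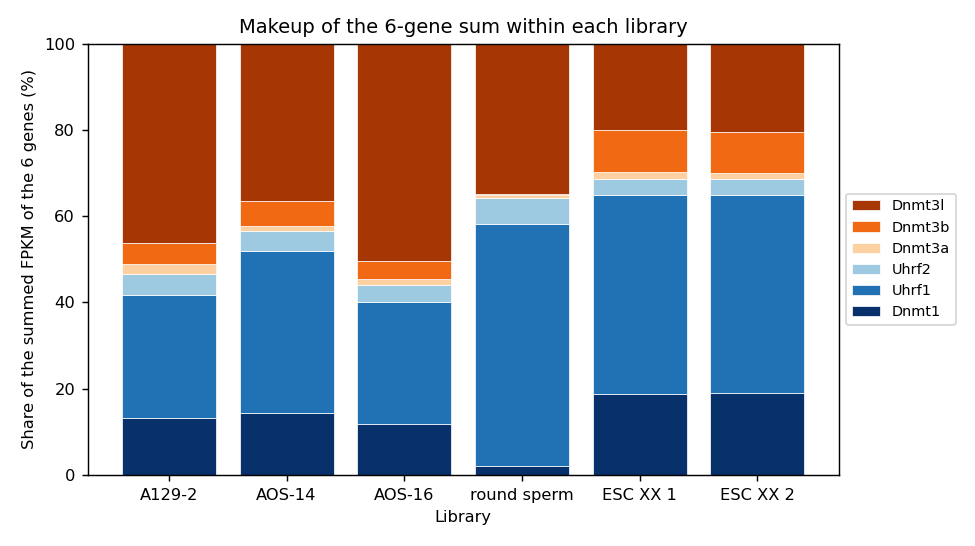
Share of each gene in the summed FPKM of the 6 genes, as stacked bars from 0 to 100% for each library. Uhrf1 and Dnmt3l fill 91.0% of the round sperm bar, and Dnmt3l takes 20.0% and 20.6% of the ESC XX bars against 36.4% to 50.4% in the AG-haESC lines.

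AG-haESCs were also set beside ESC XX. The tables were normalized separately, so values were rescaled to TPM, the median difference of 14251 genes (-0.10 on the log2 scale) was removed, and no test was made. A gene was called at a difference of at least 1 with no overlap between the groups, which held for 6.93% of genes on the higher side and 7.82% on the lower. Of the 6 genes, 1 was called higher, Dnmt3l, and 0 lower. Dnmt3l was 239.7, 196 and 387 TPM in the lines against 112 and 116 in ESC XX. Its difference was 1.30 ± 0.50 (SD of 3 lines), above that of 95.7% of genes, and leaving out any library in turn gave 1.06 to 1.45.

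The other differences were smaller. Dnmt3b was 26.0, 31.8 and 32.8 TPM in the lines and 54.7 and 52.8 in ESC XX, a difference of -0.72 ± 0.17 (SD of 3 lines) with no overlap. Dnmt1 lay at 69.0, 77.7 and 91.5 against 105 and 108 TPM, at -0.32 ± 0.20. Uhrf1 lay at 148, 203 and 217 against 259 and 258 TPM, at -0.36 ± 0.29. These 3 genes were below ESC XX in every line, but with FPKM as deposited the Dnmt1 and Uhrf1 ranges overlapped. Uhrf2 was above in every line, at 0.38 ± 0.17, and Dnmt3a overlapped, at 0.21 ± 0.37. A129-2 weighed on several of these values: without it Uhrf1 was at -0.11, Dnmt1 at -0.14 and Dnmt3a at 0.13. Freedom from overlap at any size was common, with 24.9% of genes above and 25.7% below.

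**Figure D5:**
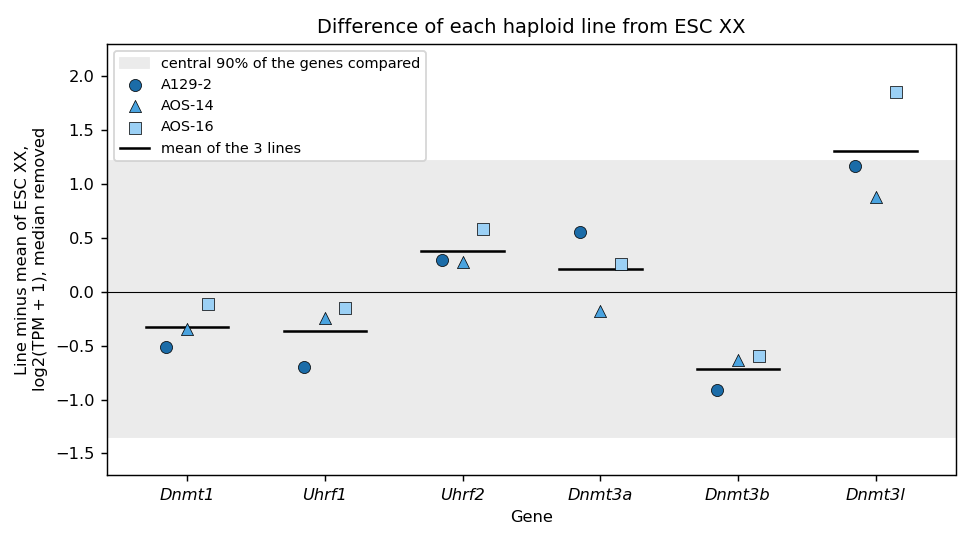
Difference between each AG-haESC line and the ESC XX mean in log2(TPM + 1), median difference removed, with a point per line and a grey band for the central 90% of genes (-1.35 to 1.21). Dnmt3l lies at 1.17, 0.88 and 1.85 in A129-2, AOS-14 and AOS-16, and every line lies below 0 for Dnmt1, Dnmt3b and Uhrf1.

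Marker sums moved with this comparison. Feeder fibroblast markers summed to 266 to 491 TPM in AG-haESCs against 2055 and 2053 in ESC XX, with 6 of 6 called lower. G2-M markers summed to 652 to 852 against 1389.8 and 1386 TPM, with 6 of 10 called lower and 0 higher, while S-phase markers summed to 1756 to 1955 against 2072 and 2065 TPM, with 0 of 12 called. Against round sperm, on FPKM as deposited, 9 of 12 S-phase genes rose by limma and 0 fell, beside 22.8% and 39.1% of all genes. Their sum in round sperm was 259 TPM. For the G2-M markers limma called 0 of 10 higher and 3 lower, beside the same shares, and their sum in round sperm was 930 TPM. As TPM the AG-haESC means of the 3 called lower, Plk1, Aurka and Cenpe, were 0.408, 0.283 and 0.228 times round sperm. Cdk1 and Mki67 were at 7.83 and 7.03 times on that scale. The part of these differences in the results for the 6 genes was not tested.

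ESC XX against round sperm shares libraries with both comparisons above, so its values stand beside them without a test. All 6 genes were above round sperm by at least 2-fold, a call that 34.9% of 16096 genes met on that side and 38.7% on the other. The differences, with the median removed, were 4.82 for Dnmt3b, 4.55 for Dnmt1, 1.96 for Dnmt3a, 1.68 for Uhrf1, 1.17 for Dnmt3l and 1.16 for Uhrf2. Dnmt3b and Dnmt1 were at the top here too, and Dnmt3l lay next to Uhrf2.

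Among the haploid lines, A129-2 was the lowest for 5 of the 6 genes in FPKM and the highest for Dnmt3a. As TPM with the median difference removed, A129-2 lay below both AOS lines by -0.70 for Uhrf1, -0.50 for Dnmt3b, -0.48 for Dnmt1 and -0.33 for Uhrf2. Dnmt3a lay above both, at 0.31, and Dnmt3l lay between them, at -0.40. None of the 6 reached the 2-fold call, which 6.43% of 13569 genes met on the higher side and 7.84% on the lower. With 1 library a line these differences have no replicate check, and at any size 36.2% of all genes lay below both AOS lines and 37.1% above. Between the AOS lines, Dnmt3l was the gene that differed most, at -0.70 for AOS-14 relative to AOS-16. It did not reach the 2-fold call, which 5.08% of genes met on the higher side and 3.08% on the lower.

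Marker sums also moved between the lines. Relative to the AOS lines, A129-2 had 5 of 6 feeder fibroblast markers called lower (median -2.58) and 8 of 10 G2-M markers below both (median -0.60). Of 12 S-phase markers 1 was called lower, 8 lay below both and 4 above both (median -0.12). Their part in the differences between lines was not tested.

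The wider pathway was read from a list of 34 genes in 6 role groups. Against round sperm, limma called 17 of the 34 higher and 6 lower, with a median difference of 1.37 on the log2 scale, beside the 22.8% and 39.1% of all genes. Rescaled to the same total, 25 were higher and 1 lower. The lower calls therefore depend on the scale for 5 of 6 genes, and those named below are given on both scales.

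Of 6 maintenance partners, 3 rose and 1 fell. Cdca7, an activator of the remodeller HELLS, was at 53.6, 68.5 and 55.3 FPKM in the lines and 0.0849 in round sperm, a rise of 5.78 (limma adjusted p = 0.00103, 3 of 3 lines). Lig1, the ligase that joins new DNA fragments, rose by 3.73 (adjusted p = 0.0103), a call lost without AOS-16 (adjusted p = 0.0567, the highest of 9 alternatives, the lowest being 0.00188). Usp7, a deubiquitinase that binds DNMT1 and UHRF1, was at 58.2, 55.6 and 48.4 FPKM in the lines and 198 in round sperm, a difference of -1.86 (limma adjusted p = 0.00547). Its TPM difference was -0.78, which was not called.

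Of 8 regulators of de novo methylation, 3 rose and 1 fell. Prdm14, which represses Dnmt3b in ESCs, rose by 4.24 (limma adjusted p = 0.00134, 3 of 3 lines). Dppa3, an inhibitor of UHRF1, was at 91.6, 90.8 and 36.0 FPKM in the lines, 0.149 in round sperm, and 27.5 and 31.0 in ESC XX. It rose by 5.89 against round sperm (limma adjusted p = 0.0126), a call lost without A129-2 or AOS-14, and over 9 alternatives the adjusted p ran from 0.00419 to 0.0658. Ehmt2, an H3K9 methyltransferase, was at 25.5, 37.4 and 37.9 FPKM in the lines and 225 in round sperm, a difference of -2.73 (limma adjusted p = 0.0105). It was the pathway gene still called lower as TPM, at -1.66. Without AOS-14 its call was lost (-2.82, adjusted p = 0.0557), as it was with quantile normalization (-1.004, adjusted p = 0.0658), the lowest adjusted p over 9 alternatives being 0.0105.

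Of 7 genes of oxidation and repair, which remove methylation, 5 rose and 0 fell, and limma placed 0 lower at an unadjusted p under 0.05. Tet1 was at 20.1, 26.4 and 21.3 FPKM in the lines and 0.0990 in round sperm, a rise of 4.41 (limma adjusted p = 0.00194). Tet2, a second dioxygenase, rose by 4.18 (limma adjusted p = 0.00224). Of 7 genes listed with the readers of methylated DNA, 3 rose and 3 fell. Zbtb38 rose by 2.69 and Zbtb33 by 2.32, the latter a call lost without AOS-14 or AOS-16. Mbd2 lay at -1.76 and Mbd3, a subunit of the NuRD complex, at -1.42. As TPM these were -0.73 and -0.35, neither called, and after quantile normalization Mbd3 turned to 0.28. The Mbd2 call was also lost without A129-2 or AOS-14, and the Mbd3 call without AOS-16.

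Of 5 genes of methyl donor supply, 3 rose. Mat2a, which makes S-adenosylmethionine, measured 122 FPKM in A129-2, 60.5 in AOS-14, 48.6 in AOS-16 and 8.95 in round sperm. It rose by 2.86 (limma adjusted p = 0.0448), a call lost without the filter on low values and without AOS-14 or AOS-16, with adjusted p from 0.0168 to 0.139 over 9 alternatives. Ahcy, which clears the by-product of methylation, rose by 2.64 (limma adjusted p = 0.00147). The RNA methyltransferase gene Trdmt1, a homolog of the family, was not called.

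Against ESC XX the same list moved little: 1 of 34 was called higher and 2 lower, beside 6.93% and 7.82% of all genes, with a median of -0.36. Dppa3 was the gene above, at 1.09 ± 0.73 (SD of 3 lines), with 180 TPM in A129-2 and 128 in AOS-14 but 65.9 in AOS-16, close to the 54.1 and 61.1 of ESC XX. Apex1, a repair endonuclease, lay below at -1.32 ± 0.14, and Zbtb4, a reader of methylated CpG, at -1.06 ± 0.28. Dppa3 and Dnmt3l were thus both above ESC XX, with Dppa3 lowest and Dnmt3l highest in AOS-16.

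Profiles over the 6 libraries were last compared by root mean square distance in log2(TPM + 1), after centring each gene on its own mean, among 16752 genes. Nearest to Dnmt1 were Slc50a1, Zfp7 and Marcks (0.06, 0.07 and 0.08), and 111 genes lay within 0.25. Dnmt3b was the closest of the other members to Dnmt1, at 0.19. Nearest to Dnmt3b were Acy1, Nipsnap1 and Poglut1 (0.07, 0.10 and 0.11), with 41 genes within 0.25. These distances describe 6 libraries of which 5 are ESCs, so they rest largely on the gap to round sperm. The added 1 shrinks the folds of low genes, so a near profile need not mean a similar fold. In round sperm Slc50a1, Zfp7 and Marcks were at 0, 0.203 and 0.241 TPM, against 1.90 for Dnmt1.

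Dnmt3l had the least common profile, with 27 genes within 0.25 and Sept6, Abca3 and Syngr3 nearest (0.12, 0.13 and 0.13). In round sperm these neighbours were at 0.248, 0.393 and 0 TPM, against 31.3 for Dnmt3l, so they do not share its level there. Dnmt3a and Uhrf2 had common ones, with 530 and 474 genes within 0.25. Nearest to Dnmt3a were Dennd6a, Mapk1ip1l and Haus2 (0.05, 0.06 and 0.06), and to Uhrf2 were Prrc1, Fndc4 and Ctif (0.06, 0.07 and 0.07). In round sperm Prrc1 was at 6.27 TPM, near the 5.43 of Uhrf2, but Fndc4 and Ctif were at 0 and 0.0619. Uhrf1, with 216 genes within that distance, had Fam102a, Cct6a and Rpl24 nearest (0.08, 0.10 and 0.11) and lay at 0.36 from Uhrf2.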

How the data were processed

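PolyA RNA of 6 libraries was made into libraries with a stranded KAPA kit, per the labels' protocols. The submitters' processing notes name TopHat2 2.0.13, Cuffdiff 2.2.1 and the build mm9. The deposited values are FPKM. The 2 ESC XX tables name that unit, and for the shared table of the other 4 libraries it was inferred from the tool and the values. Library scaling and strand use are not given in the sources. The files hold no counts, so fragment numbers are approximate, estimated from the steps of low values.

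AG-haESCs and round sperm were compared with limma 3.58.1 (R 4.3.3, trend) on log2(FPKM + 1) over genes that reached 1 FPKM in any of the 4 libraries. The test had 2 residual degrees of freedom, was two-sided and was adjusted by Benjamini-Hochberg over all genes. It assumes that the lone round sperm library varies like the lines, and the spread behind the p-values comes from the AG-haESC lines alone. The procedure was tested on simulated data. There the lone library was drawn with the spread of the lines, so the assumption that it varies like them was not tested. Changed genes were drawn only above the AG-haESC levels of Dnmt3a, Dnmt3b and Uhrf2, so recovery at their levels was not tested. Comparisons with ESC XX and between lines used log2(TPM + 1) without a test. TPM was computed by rescaling.

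The members and lists were chosen with earlier results of these data known. Named genes are the 6 members, up to 2 called genes per direction and role group of the pathway list, the 3 nearest profiles per member, and cell type markers. A called gene of the methyl donor group is not reported here. Promoter sequences are from RefSeq (GRCm38.p6), another build than mm9, and overlapping genes from GENCODE. Alternatives were a pseudocount of 0.1, no filter, rescaling to TPM with and without transcripts under 200 nt, quantile normalization, limma without a trend and leaving out each library.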

Additional observations from a re-analysis of the deposited data

How the results depend on the processing

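Against round sperm, all 6 genes kept their direction under every alternative run. Uhrf1 became called at 1.87 when rescaled to TPM, 1.84 with short transcripts also left out and 2.22 after quantile normalization. Leaving out each AG-haESC line gave 1.72 to 2.11 for Dnmt3l, 1.01 to 1.22 for Uhrf2 and 3 to 4 genes called. The 6 lower calls of the pathway list became 1, 1 and 0 under those same rescalings in turn, with 1, 2 and 2 lower at an unadjusted p under 0.05 by limma. Against ESC XX, Dnmt3b ranged from -0.85 to -0.53 over the left-out libraries, and the pathway list had 0 to 1 called higher and 1 to 4 lower. For A129-2 against the AOS lines, Dnmt3b was -0.56 with FPKM as deposited, -0.55 after quantile normalization and -0.53 with a pseudocount of 0.1, and Uhrf1 was -0.78 and -0.61 under the first and second of these. The cause of the remaining changes was not tested. No paired analysis was possible because only the ESC XX labels carry replicate numbers. Every fold against round sperm rests on its single library, which had about 10 to 12 fragments for Dnmt3b but 2158 to 2290 for Uhrf1.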
